A study of Xenopus laevis with 14 samples.

Results

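RNA from untreated ectoderm of Xenopus laevis was compared with RNA from ectoderm that had received noggin mRNA and retinoic acid. The ectoderm was taken as animal caps, the pigmented top of the frog embryo. Embryos were injected at the 2-cell stage, caps were cut out at about stage 10, and explants were kept in a dilute salt solution until RNA was isolated. The comparison used 4 of the 14 samples of the study, 2 libraries of untreated caps and 2 libraries of caps with noggin and retinoic acid, called treated caps from here on. The untreated caps carried no injected RNA and no retinoic acid, so neither agent was given alone, and injection itself, noggin and retinoic acid cannot be told apart. Another 6 RNA libraries received the same pair of agents and a prdm12 construct as well, and they entered the shared estimate of the spread and are otherwise used only to set levels side by side. Genes were taken from the deposited table if their mean over the 10 RNA libraries was at least 10 normalized reads, which left 12937 of 19921 genes. No label says whether the 2 libraries of a group were separate clutches or cultures. The p-values therefore rest on the spread between these libraries alone, and that spread may be technical.

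Bone morphogenetic proteins (BMPs) are secreted ligands whose receptors phosphorylate Smad proteins, and in the early frog embryo their signal directs ectoderm to epidermis. Noggin binds BMPs outside the cell and keeps them from their receptors, and ectoderm in which BMP signalling is blocked becomes neural. Retinoic acid is a small derivative of vitamin A that enters the nucleus, binds RAR and RXR receptors on DNA, and shifts neural tissue from forebrain toward hindbrain and spinal cord character, in part through Hox genes. It is made from retinol by retinol and retinaldehyde dehydrogenases and broken down by Cyp26 enzymes. Cultured epidermis of the frog holds goblet cells that secrete mucus, ionocytes that pump acid and salt, small secretory cells and multiciliated cells, over a basal layer.

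Values below are normalized reads, which are reads divided by 1 factor for each library, and they are given for replicate 1 and then replicate 2. A log2 fold change is treated minus untreated on the scale of log2(normalized reads + 1), with its standard error. A gene was called higher or lower when its adjusted p from limma, corrected by the Benjamini-Hochberg method over all 12937 genes, was under 0.05. Gene lists are described by how many of their tested members were called in each direction and by their median log2 fold change, beside the same for all genes, and no list was tested as a whole. The filter on the mean shapes these counts, because a gene with few reads in untreated caps enters only if other libraries hold more. Of the 12937 genes, 1366 (10.6%) had an untreated mean under 10, and 1023 of them were called higher and 0 lower. A treated mean under 10 was found for 912 genes, and 660 of those were called lower. Such members support no direction for a list, and their number is given where they are many. Where a group held no read of a gene, the difference is given as a lower bound against 3 reads over the group, and with 1 to 3 reads as a ratio of reads with a counting interval, which covers counting error only.

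A large part of the transcriptome differed between the groups. Of the 12937 genes, 5655 (43.7%) were called, 2887 (22.3%) higher and 2768 (21.4%) lower in treated caps. The median log2 fold change over all genes was 0.02. Among called genes the median size of the log2 change was 3.12 for those higher and 2.50 for those lower, which leaves the 113 genes with no read in untreated caps and the 49 with no read in treated caps at their fitted values. More than an 8-fold change was fitted for 1495 of the genes called higher and 1150 of those called lower. The genes called lower took 48.6% and 47.7% of normalized reads in untreated caps and 11.1% and 10.96% in treated caps. The genes called higher took 4.42% and 5.40% in untreated caps and 27.2% and 32.0% in treated caps. The values of the 2 groups did not overlap for 9271 genes (71.7%). Lack of overlap was also a condition for naming some genes, so it adds no support to a call where it is stated below. Leaving out any 1 of the 4 libraries kept 3557 of the 5655 calls, 1809 higher and 1748 lower. Scaling by TMM, a trimmed mean of ratios, moved the median of all genes by 0.10 to 0.12, and values here are on the deposited scale.

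Depth was close across the 4 libraries, with 13352228 and 14397310 reads on genes in untreated caps and 15893668 and 14514707 in treated caps. The shares of read records that had not aligned uniquely were 44.0% and 34.3% in untreated caps and 27.7% and 26.4% in treated caps, so this measure moved with the groups, and its part in the results was not tested. All genes are lines of Xenopus tropicalis identifiers, so both gene copies of the tetraploid Xenopus laevis share a line, and close paralogs and overlapping genes are uncertain because the libraries keep no strand. The organism's genome sequence is not used here.

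**Figure D1:**
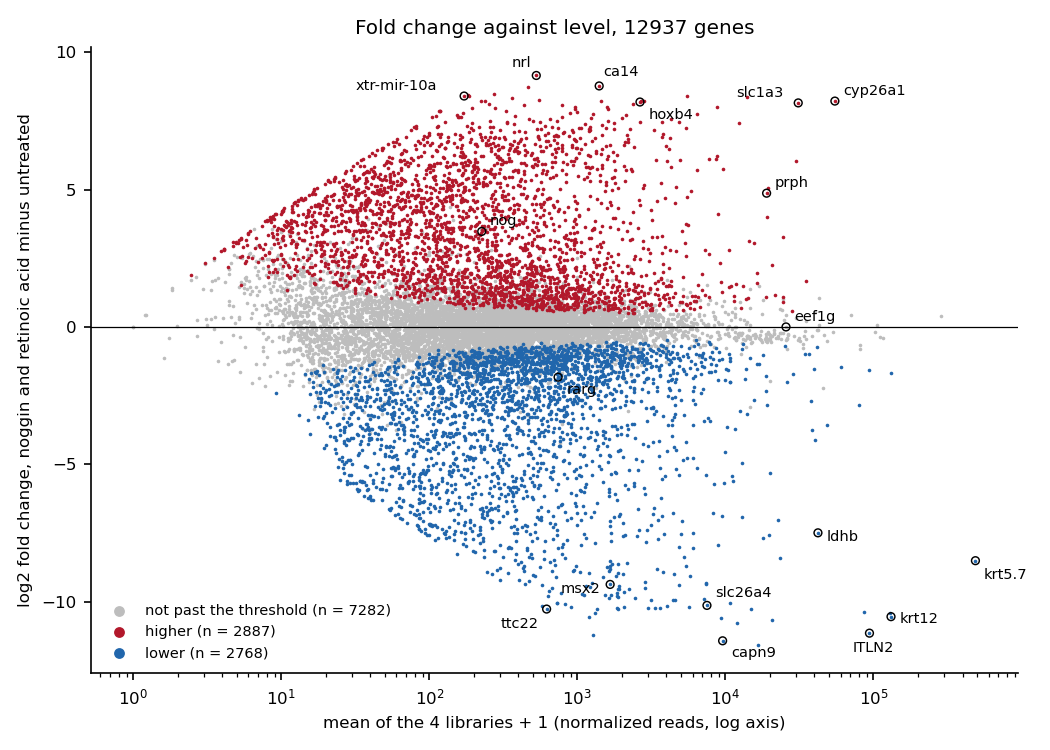
Log2 fold change (treated minus untreated caps, on the scale of log2(normalized reads + 1)) against the mean of the 4 libraries plus 1 on a log axis, 1 point for each of 12937 genes. Red points are the 2887 genes called higher, blue points the 2768 called lower and grey points the 7282 not called, and circles mark examples with their symbols. Genes with few reads in 1 group lie along the slanted edges of the cloud.

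The nog line and the chosen markers followed the labels. The members of the comparison were chosen with earlier results of these data known, so this is no test of the labels. Reads of nog, which encodes noggin itself, numbered 30.4 and 42.7 in untreated caps and 453 and 374 in treated caps (log2 fold change 3.48 ± 0.36, adjusted p = 0.000139). Both treated libraries were above both untreated ones, and reads of injected and embryonic nog cannot be told apart. For hoxb4, a homeobox gene of the hindbrain and spinal cord, the values were 17.2 and 16.4 and then 6232 and 4327 (log2 fold change 8.19 ± 0.27, adjusted p = 1.28e-06). The line krt12, a keratin of the epidermis (ENSXETG00000025341), had 283374 and 242427 in untreated caps and 145 and 208 in treated caps (log2 fold change -10.55 ± 0.35, adjusted p = 1.28e-06). ITLN2, which encodes a lectin of the mucus layer, had 170399 and 205719 and then 40.6 and 161 (log2 fold change -11.15 ± 0.68, adjusted p = 1.2e-05). None of these 4 genes overlapped between the groups. Since RNA was taken from whole explants, fewer cells of a type and less RNA of a gene in each cell cannot be told apart, here and in every result that follows.

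Ligands and extracellular regulators of BMP moved in both directions. Of 16 tested, 6 were higher and 4 lower, and the other 6 were not called. The shares were 37.5% higher and 25% lower, against 22.3% and 21.4% of all genes. An untreated mean under 10 was found for 3 of the 6 higher, and a treated mean under 10 for 1 of the 4 lower. Those higher were nog, its relatives nog2 and nog4, fst, chrd and the protease gene bmp1. For fst, which encodes the activin and BMP binder follistatin, the values were 47.6 and 28.4 in untreated caps and 5228 and 3109 in treated caps (log2 fold change 6.74 ± 0.39, adjusted p = 9.38e-06). Chordin (chrd), a BMP antagonist of the organizer, had 11.9 and 6.57 and then 109.8 and 85.3 (log2 fold change 3.31 ± 0.39, adjusted p = 0.000242). The noggin relatives nog2 and nog4 were near 0 in untreated caps. nog2 had 0 and 1.09 there and 575 and 318 in treated caps (treated-to-untreated ratio 748, 95% counting interval 134 to 29582, adjusted p = 1.41e-05). nog4 had 0 and 1.09 and then 31.7 and 67.8 (treated-to-untreated ratio 82.6, 95% counting interval 14.6 to 3289.6, adjusted p = 0.00425). In each of these genes both treated libraries lay above both untreated ones.

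Feedback inhibitors of the BMP pathway, which are made when the pathway is active, were lower. The pseudoreceptor gene bambi had 7394 and 4183 in untreated caps and 20.3 and 27.6 in treated caps (log2 fold change -7.81 ± 0.52, adjusted p = 1.86e-05). Sizzled (szl), a secreted inhibitor of the proteases that cut chordin, had 1351 and 611 and then 11.4 and 11.7 (log2 fold change -6.18 ± 0.46, adjusted p = 2.9e-05). The inhibitory Smad gene smad7 had 793 and 705 and then 26 and 9.2 (log2 fold change -5.49 ± 0.52, adjusted p = 8.71e-05), and its relative smad6 had 1277 and 1579 and then 259 and 138 (log2 fold change -2.90 ± 0.40, adjusted p = 0.000629). The groups did not overlap in any of the 4. Among the chordin-cutting proteases the lines moved in opposite directions. TLL2, a tolloid-like protease, had 9241 and 4205 and then 4.07 and 4.18 (log2 fold change -10.25 ± 0.75, adjusted p = 2.63e-05), while bmp1 had 216 and 812 and then 2368 and 3057 (log2 fold change 2.68 ± 0.52, adjusted p = 0.00348).

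The ligand and receptor genes gave few calls. Of 16 receptors, Smads and their regulators 12.5% were higher and 12.5% lower, below the 22.3% and 21.4% of all genes. The ligand gene bmp4 had 3866 and 3252 in untreated caps and 2247 and 742 in treated caps and was not called (log2 fold change -1.46 ± 0.65, adjusted p = 0.107), although the limma fit that blocks on the replicate number called it lower (adjusted p = 0.0095), as did the fit without treated replicate 1 (adjusted p = 0.0343). The main BMP effector smad1 had 1330.0 and 1137 and then 848 and 860.0 (log2 fold change -0.53 ± 0.21, adjusted p = 0.0706), also not called, and limma with the block (adjusted p = 0.0301) and DESeq2 on recovered reads (adjusted p = 0.0309) called it lower. The 4 lower regulators in the list above were bambi, szl, TLL2 and the ligand gene bmp2 (log2 fold change -1.96 ± 0.69, adjusted p = 0.0476), whose call ended with several settings, among them edgeR on recovered reads, with TMM or quantile scaling, and without untreated replicate 1, untreated replicate 2 or treated replicate 2. In the list of 16 receptors, Smads and their regulators, smad6 and smad7 were lower and the receptor genes bmpr1b (log2 fold change 2.66 ± 0.52, adjusted p = 0.00366) and acvr2b (log2 fold change 1.03 ± 0.30, adjusted p = 0.0247) higher. Without untreated replicate 1, treated replicate 1 or treated replicate 2 acvr2b was not called, and the count of 2 lower rose to 7 when the replicate number was a block in the fit.

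Of 20 target factors of BMP in the ectoderm, 18 were lower and 0 higher, against 21.4% and 22.3% of all genes. Their median log2 fold change was -5.63, and 7 of the 18 had a treated mean under 10. The homeobox gene msx2 had 2941 and 3707 in untreated caps and 1.63 and 8.37 in treated caps (log2 fold change -9.38 ± 0.67, adjusted p = 2.39e-05). Its relative dlx3, a factor of the epidermis and the neural plate border, had 944 and 836 and then 0 and 0.84 (untreated-to-treated ratio 2146, 95% counting interval 384 to 84805, adjusted p = 1.38e-05). tfap2c, an AP-2 factor, had 4411 and 3609 and then 39 and 19.2 (log2 fold change -7.13 ± 0.50, adjusted p = 2.27e-05). grhl3, which encodes a Grainyhead-like activator of the outer epidermal layer, had 9392 and 8431 and then 11.4 and 23.4 (log2 fold change -9.0 ± 0.79, adjusted p = 5.97e-05). tp63, the p63 factor of the basal epidermis, had 502 and 1888 and then 1.63 and 3.35 (log2 fold change -8.17 ± 0.78, adjusted p = 8.9e-05), and its untreated values were 3.76 times apart. id3, a direct BMP target in many cells, kept more of its reads, with 9584 and 6308 and then 450.4 and 959 (log2 fold change -3.56 ± 0.55, adjusted p = 0.00103). The libraries of the 2 groups stood apart in all 6 genes, with both treated values the lower.

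Genes that break down and bind retinoic acid were higher without exception among the 4 tested. cyp26a1 had 357 and 373 in untreated caps and 104884 and 114095 in treated caps (log2 fold change 8.22 ± 0.23, adjusted p = 1.28e-06). The values of cyp26c1 were 68.8 and 95.2 and then 20879 and 34862 (log2 fold change 8.36 ± 0.40, adjusted p = 4.73e-06). cyp26b1 had 3.97 and 19.7 and then 624 and 3116 (log2 fold change 7.10 ± 1.37, adjusted p = 0.00337). All 3 encode enzymes that oxidize retinoic acid, and in all 3 every treated value was above every untreated one, while the 2 treated values of cyp26b1 were 5.0 times apart. crabp2, which encodes a carrier of retinoic acid into the nucleus, had 33.1 and 15.3 and then 275 and 250.1 (log2 fold change 3.48 ± 0.48, adjusted p = 0.000618).

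Enzymes of retinoid supply moved in both directions, with 3 higher and 4 lower of 14 tested, shares near the 22.3% and 21.4% of all genes. dhrs3, which encodes a reductase that turns retinaldehyde back into retinol, had 1028 and 1243 in untreated caps and 39537 and 35824 in treated caps (log2 fold change 5.06 ± 0.22, adjusted p = 3.07e-06). Both treated values stood far above the untreated ones. The retinaldehyde dehydrogenase gene aldh1a1 had 2614 and 2529 and then 27.6 and 19.2 (log2 fold change -6.74 ± 0.55, adjusted p = 4.5e-05). rdh11, a retinol dehydrogenase gene, had 283 and 298 and then 12.2 and 0.84 (log2 fold change -5.89 ± 1.15, adjusted p = 0.00373), and dhrs4 had 554 and 336 and then 51.2 and 78.6 (log2 fold change -2.75 ± 0.43, adjusted p = 0.00114). These 3 were lower in both treated libraries. aldh1a2, the main retinoic acid producer of the frog trunk, was low throughout, with 10.6 and 21.9 and then 74 and 16.7, overlapping groups and no call (adjusted p = 0.346).

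Receptors of retinoic acid changed one against another. rarb had 18.5 and 13.1 in untreated caps and 1228 and 1891 in treated caps (log2 fold change 6.52 ± 0.47, adjusted p = 2.59e-05). rara had 196 and 231 and then 2685 and 2755 (log2 fold change 3.67 ± 0.20, adjusted p = 8.4e-06). rarg moved the other way, from 1061 and 1252 to 303 and 345 (log2 fold change -1.83 ± 0.26, adjusted p = 0.000671). None of the 3 genes overlapped between the groups, so that rara and rarb were higher and rarg lower in the same libraries. rxrg, a partner receptor, had 2.65 and 2.19 and then 91.9 and 218 (log2 fold change 5.38 ± 0.81, adjusted p = 0.000935), and rxra was not called (adjusted p = 0.0832), or was called higher with the replicate block (adjusted p = 0.0176) and without untreated replicate 2 (adjusted p = 0.0389). ncor1, a corepressor that sits on these receptors without ligand, had 1974 and 1872 and then 5143 and 4911 (log2 fold change 1.39 ± 0.17, adjusted p = 0.00032), and nrip1, which is recruited with ligand, had a log2 fold change of 2.05 ± 0.29. In all, 8 of 16 receptor and cofactor genes were higher and 2 lower. The count of 8 higher was 4 at a fold of at least 2. The count of 2 lower was 1 without untreated replicate 1 or treated replicate 1, and 6 with the replicate block.

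**Figure D2:**
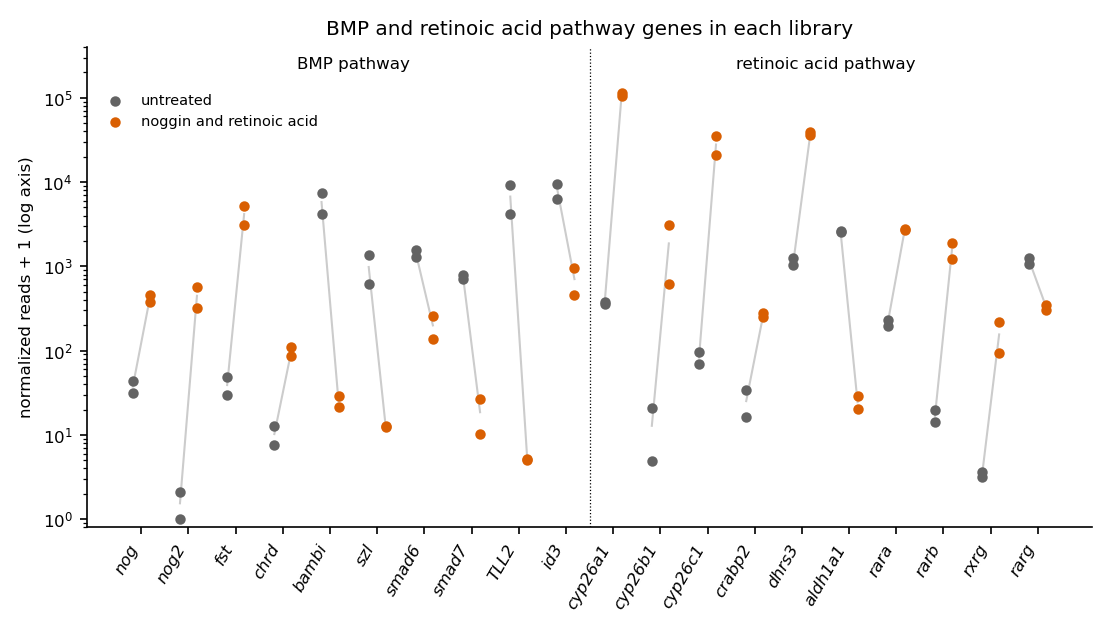
Normalized reads plus 1 on a log axis for 20 genes of the BMP and retinoic acid pathways, with grey points for the 2 libraries of untreated caps, orange points for the 2 libraries of treated caps and a line joining the group means. All 20 are called genes, picked from lists that also hold genes not called, such as bmp4, smad1, rxra and aldh1a2. The groups are apart in each gene shown, as they are for 71.7% of all genes. Within the RAR receptors rarg falls while rara and rarb rise.

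Families of transcription factors moved in opposite directions. Of 26 Hox genes, 24 were higher and 0 lower, or 1 lower with the replicate block, with a median log2 fold change of 6.47. An untreated mean under 10 was found for 5 of them, 4 of these higher, and 20 of the other 21 were higher. hoxb3, of the hindbrain, had 45 and 75.5 in untreated caps and 12389 and 13250.4 in treated caps (log2 fold change 7.76 ± 0.26, adjusted p = 1.5e-06). hoxb8, whose expression begins at spinal cord levels, had 15.9 and 18.6 and then 4194 and 7030.5 (log2 fold change 8.22 ± 0.41, adjusted p = 5.46e-06). The more posterior hoxb9 had 1.32 and 0 and then 123 and 35.1 (treated-to-untreated ratio 133, 95% counting interval 23.6 to 5274, adjusted p = 0.00299). In each of these, the treated libraries were above the untreated ones, although the 2 treated values of hoxb9 were 3.49 times apart. hoxa9 was not called, with 9.26 and 7.66 and then 34.1 and 9.2, overlapping groups and adjusted p = 0.293.

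Hox cofactors were higher as well. The count was 8 of 10 Meis, Pbx and related genes, and it fell to 5 without untreated replicate 1, untreated replicate 2 or treated replicate 2 and to 4 at a fold of at least 2. meis3, a hindbrain cofactor of Hox proteins, had 1400.1 and 692 in untreated caps and 16670.4 and 16966 in treated caps (log2 fold change 4.09 ± 0.33, adjusted p = 4.3e-05). Its groups did not overlap.

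Sox genes were higher in 12 of 14 and lower in 1, and 4 of the 12 had an untreated mean under 10. sox2, a factor of neural progenitors, had 160.1 and 62.4 in untreated caps and 1909.8 and 1164 in treated caps (log2 fold change 3.88 ± 0.47, adjusted p = 0.000283). sox1 had 5.29 and 6.57 and then 191 and 323 (log2 fold change 5.18 ± 0.58, adjusted p = 0.000195). The 1 lower member was sox7, an F-group Sox factor, with 1783 and 859 and then 40.6 and 15.9 (log2 fold change -5.55 ± 1.07, adjusted p = 0.00346). Of 9 Pax lines 5 were tested, and all 5 were higher, 2 of them from an untreated mean under 10. Of 21 lines for proneural and related bHLH genes 14 were tested, and 9 of the 14 had an untreated mean under 10, of which 6 were higher. Among the other 5, 4 were higher and 0 lower. neurog2, a neurogenic bHLH factor, had 1.32 and 0 and then 343 and 275 (treated-to-untreated ratio 517, 95% counting interval 92.5 to 20446, adjusted p = 2.09e-05). olig2, a factor of motor neuron progenitors, had no read in untreated caps and 257 and 155 in treated caps (at least 115-fold higher in treated caps, adjusted p = 6.24e-05). nhlh1, expressed as neurons leave the cell cycle, had 2.65 and 2.19 and then 198 and 294 (log2 fold change 6.15 ± 0.43, adjusted p = 2.27e-05). The treated libraries were the higher in all of these but sox7, where both were the lower.

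Of 11 POU genes 5 were higher, 1 lower and 5 not called, and of 8 LIM homeobox genes 5 were higher and 1 lower. Of those higher, 3 POU and 3 LIM homeobox genes had an untreated mean under 10. Among members with a larger untreated mean, 2 of 6 POU and 2 of 5 LIM homeobox genes were higher, beside 1864 of 11571 such genes in all. Over all tested genes 22.3% were higher and 21.4% lower. lhx3, of motor neurons and V2 interneurons, had 1.32 and 2.19 in untreated caps and 379 and 646 in treated caps (treated-to-untreated ratio 284, 95% counting interval 97 to 1379, adjusted p = 6.54e-05). pou3f2, a Brn factor of neural progenitors and neurons, had 3.97 and 6.57 and then 658 and 1091 (log2 fold change 7.11 ± 0.70, adjusted p = 0.000104). pou4f1, a factor of sensory neurons, had 2.65 and 1.09 and then 186 and 682 (treated-to-untreated ratio 239.6, 95% counting interval 81.8 to 1164, adjusted p = 0.00123), with treated values 3.66 times apart. pou2f3, a POU factor of epidermis and chemosensory cells in mammals, was the 1 lower, with 161 and 174 and then 0 and 0.84 (untreated-to-treated ratio 408, 95% counting interval 72.7 to 16180.0, adjusted p = 0.000136). The 1 lower LIM homeobox gene was not called without untreated replicate 1 or treated replicate 1.

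Factors of the skin fell. Dlx and Msx genes were lower in 7 of 8, Grainyhead-like genes in 5 of 6 and AP-2 genes in 3 of 4, none higher. Most of these are also among the BMP targets above. A treated mean under 10 was found for 3 of the lower Dlx and Msx genes, 1 Grainyhead-like gene and 0 AP-2 genes. Among 19 ETS factors 8 were lower, or 4 at a fold of at least 2, and 3 of the 8 had a treated mean under 10. SPDEF, which directs goblet cells in mammals, had 165 and 246 in untreated caps and 0.81 and 0 in treated caps (untreated-to-treated ratio 508, 95% counting interval 90.7 to 20139, adjusted p = 9.95e-05). ELF3, an epithelial ETS factor, had 4588 and 2012 and then 91.9 and 57.7 (log2 fold change -5.36 ± 0.46, adjusted p = 5.58e-05). ETS genes were higher in 3 of 19 (15.8%), under the 22.3% of all genes, and lower in 42.1%, against 21.4%. The count higher fell without untreated replicate 1 or treated replicate 1. Some families held both kinds. Of 6 Nkx genes, 4 were higher, all from an untreated mean under 10, and 2 lower, both to a treated mean under 10. These counts therefore support no direction for the family. nkx2-3 had 1322 and 1055 and then 1.63 and 3.35 (log2 fold change -8.45 ± 0.52, adjusted p = 1.2e-05). nkx2-2, of the ventral spinal cord, had 0 and 1.09 and then 50.4 and 46.9 (treated-to-untreated ratio 81.2, 95% counting interval 14.3 to 3235, adjusted p = 0.00028). In the Irx family irx1 had 38.4 and 159.8 and then 3819 and 4531 (log2 fold change 5.71 ± 0.61, adjusted p = 0.000153), and irx4 had 596 and 836 and then 3.25 and 36 (log2 fold change -5.82 ± 1.11, adjusted p = 0.0033). In every gene named here the 2 groups stood apart.

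**Figure D3:**
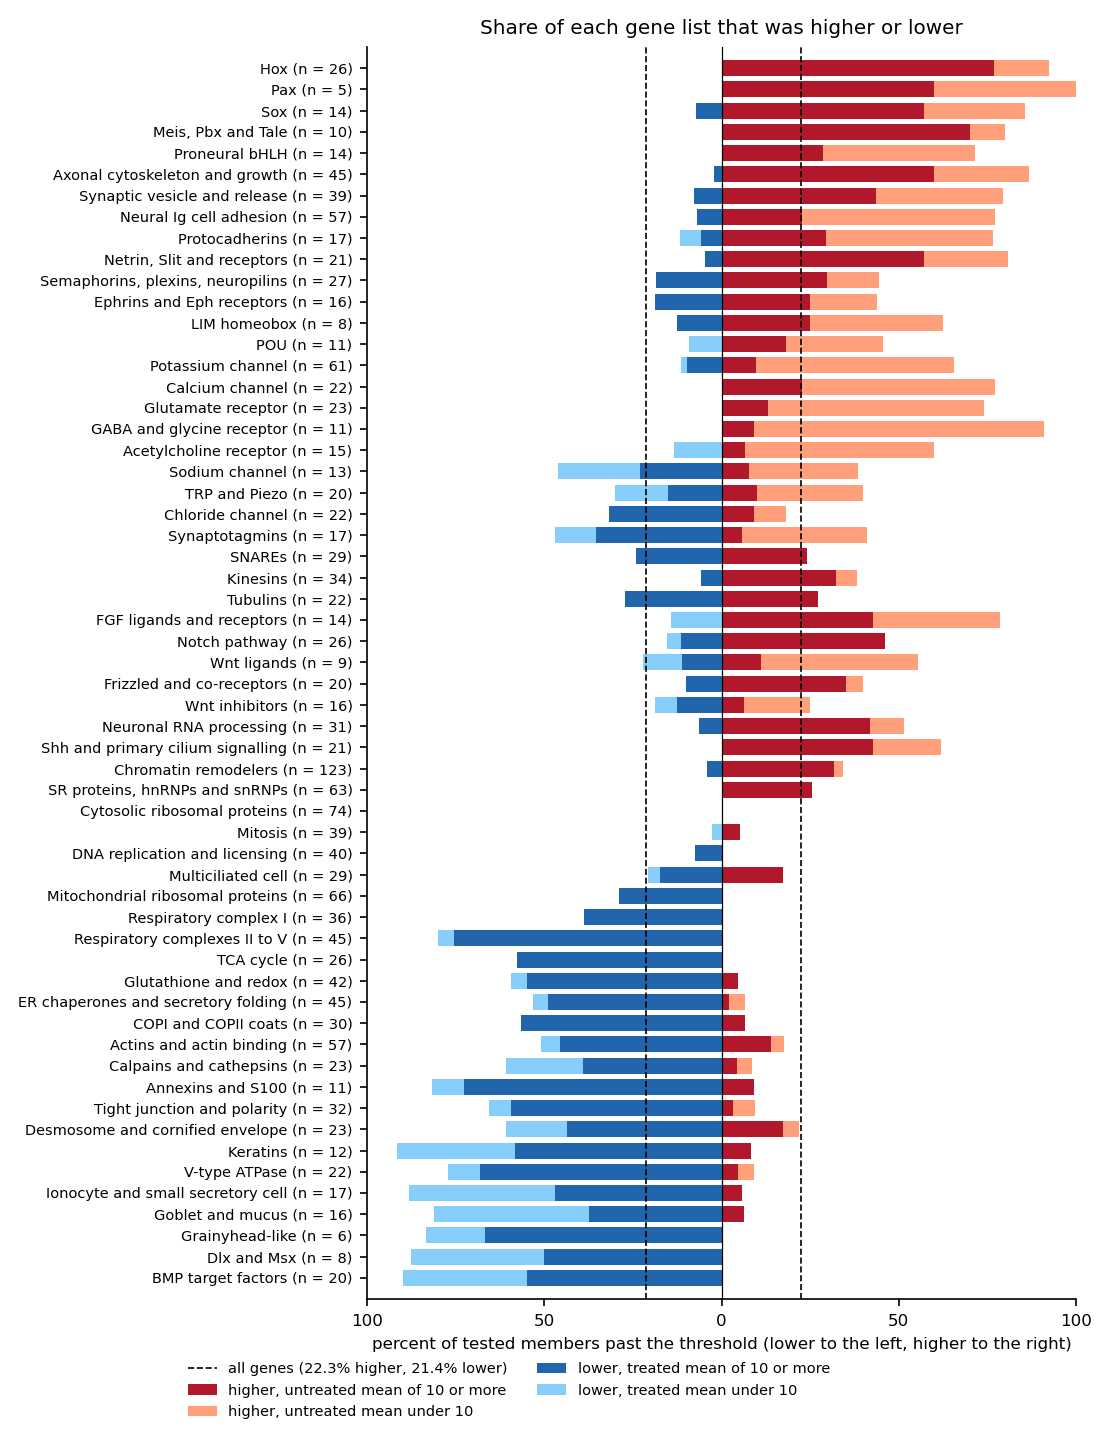
Percent of tested members called higher (red, to the right) or lower (blue, to the left) in treated caps for 58 gene lists, with the number tested in parentheses and dashed lines at the shares over all genes (22.3% higher, 21.4% lower). Pale parts of the bars are members called higher from an untreated mean under 10 or lower to a treated mean under 10. They make up most of the calls higher in lists such as potassium channels, sodium channels, synaptotagmins and GABA receptors. Sodium channels, tubulins and SNAREs have calls on both sides.

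Channel and receptor families differed in their counts, and many of their members had almost no reads in untreated caps. Over all genes 22.3% were higher and 21.4% lower. Of 61 potassium channel genes 40 were higher and 7 lower. Of these 61, 39 had an untreated mean under 10, 34 of them higher, and of the other 22 genes 6 were higher and 7 lower. Of 22 calcium channel genes 17 were higher and 0 lower, and 13 of the 22 had an untreated mean under 10, 12 of them higher. Untreated means were also under 10 for 15 of 23 glutamate receptor genes, where 17 were higher and 0 lower, or 1 lower with DESeq2 on recovered reads, and for 10 of 11 GABA and glycine receptor genes, where 10 were higher and 0 lower. Chloride channel genes were higher in 4 of 22 (18.2%), 2 of them from an untreated mean under 10. They were lower in 7 (31.8%), or in 11 with the replicate block. TRP and Piezo genes were higher in 8 of 20 and lower in 6, with 5 higher without treated replicate 2. Of these 8, 6 had an untreated mean under 10, and of the 6 lower, 3 had a treated mean under 10. CACNG2, a partner of AMPA receptors grouped with the calcium channels, had 2.65 and 2.19 in untreated caps and 434 and 631 in treated caps (log2 fold change 7.26 ± 0.45, adjusted p = 1.29e-05). grin1, the obligatory NMDA receptor subunit, had 33.1 and 29.5 and then 2498 and 2296 (log2 fold change 6.21 ± 0.23, adjusted p = 1.79e-06). In both the treated libraries were close to each other and above the untreated ones. The kainate receptor gene GRIK2 had a log2 fold change of 7.04 ± 0.32, the AMPA receptor gene gria4 one of 6.34 ± 0.36, the glycine receptor gene glra3 one of 4.93 ± 0.37 and the nicotinic receptor gene CHRNB4 one of 6.29 ± 0.36.

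Sodium channel genes moved in both directions, beside 22.3% of all genes higher and 21.4% lower. Of 13 genes 5 were higher and 6 lower, with 3 higher when treated replicate 2 was left out. Of the 5 higher, 4 had an untreated mean under 10, and of the 6 lower, 3 had a treated mean under 10. scn3a, a voltage-gated channel of developing neurons, had 30.4 and 30.6 in untreated caps and 2036 and 3793 in treated caps (log2 fold change 6.46 ± 0.58, adjusted p = 7.07e-05), and scn1a had 6.62 and 10.9 and then 433 and 919 (log2 fold change 6.05 ± 0.60, adjusted p = 0.000107). The epithelial channel subunit scnn1b had 1969 and 2177 and then 4.07 and 2.51 (log2 fold change -8.94 ± 0.51, adjusted p = 8.63e-06). scn4a, the channel of mammalian skeletal muscle, also fell, from 267 and 141 to 2.44 and 2.51 (log2 fold change -5.81 ± 0.74, adjusted p = 0.000398). All of these kept their groups apart. Among potassium channels the lower members included kcna4, a fast-inactivating channel, with 647 and 845 and then 4.88 and 7.53 (log2 fold change -6.71 ± 0.43, adjusted p = 1.55e-05).

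Curated lists of the synapse and the axon were higher in most of their members. Of 39 genes of synaptic vesicles and release 31 were higher and 3 lower, and 14 of the 31 had an untreated mean under 10. Of 45 genes of the axonal cytoskeleton and growth 39 were higher and 1 lower, or 2 lower without treated replicate 2 or with the replicate block, and 12 of the 39 had an untreated mean under 10. Whole families of the same machinery were mixed. Synaptotagmins were higher in 7 of 17, 6 of them from an untreated mean under 10, and lower in 8, 2 of them to a treated mean under 10. Tubulins were higher in 6 and lower in 6 of 22 (27.3% each way), against 22.3% and 21.4% of all genes. SNAREs were higher in 7 of 29 and lower in 7, shares near those of all genes, or 3 and 2 at a fold of at least 2. The SNARE counts were 4 higher without untreated replicate 1, 3 higher without treated replicate 2, and 3 or 4 lower without any of the 4 libraries in turn. Kinesins were higher in 13 of 34 and lower in 2, with 8 higher without untreated replicate 1, 7 without treated replicate 2 or at a fold of at least 2, and 4 lower with the replicate block. syp, a protein of the synaptic vesicle, had 42.4 and 65.7 in untreated caps and 7652 and 11617 in treated caps (log2 fold change 7.45 ± 0.55, adjusted p = 2.78e-05). snap25, a SNARE of transmitter release, had 140.3 and 149.9 and then 7003 and 9833 (log2 fold change 5.83 ± 0.56, adjusted p = 9.17e-05). dpysl4, a relative of collapsin response mediators, had 22.5 and 21.9 and then 2930.2 and 4072 (log2 fold change 7.22 ± 0.35, adjusted p = 4.8e-06), and the axonal motor kif5a had 31.8 and 44.9 and then 3004 and 5645 (log2 fold change 6.73 ± 0.96, adjusted p = 0.000696). For these genes the treated values were well above the untreated ones, and replicate 2 was the higher of the treated pair in all 4.

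Transporters that mark the transmitter of a neuron were present for several types. They are picked examples, since solute carrier genes were higher in 50 of 242 (20.7%) and lower in 83 (34.3%). Over all genes the shares were 22.3% and 21.4%. Of the 50 higher, 23 had an untreated mean under 10, and of the 83 lower, 21 had a treated mean under 10. Neighbouring lines of slc18a1, another vesicular transporter gene, were called lower. SLC18A3, which loads acetylcholine into vesicles, had 2.65 and 1.09 in untreated caps and 491 and 825 in treated caps (treated-to-untreated ratio 365, 95% counting interval 125 to 1771, adjusted p = 0.000418). The vesicular glutamate transporter slc17a7 had 6.62 and 6.57 and then 615 and 527 (log2 fold change 6.23 ± 0.54, adjusted p = 5.97e-05). The groups of these 2 genes were apart. The glycine transporter slc6a5 had 7.94 and 12 and then 299 and 765 (log2 fold change 5.47 ± 0.77, adjusted p = 0.000649), and gad1, which makes GABA, had 18.5 and 36.1 and then 21.9 and 156, with overlapping groups and no call (adjusted p = 0.452). slc1a3, a glutamate transporter of radial glia and astrocytes, had 152 and 289 and then 47109 and 76699.8 (log2 fold change 8.16 ± 0.55, adjusted p = 1.92e-05).

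Cell surface and guidance families differed. Immunoglobulin and leucine-rich adhesion genes of neurons were higher in 44 of 57 and lower in 4, with 31 of the 44 from an untreated mean under 10. Protocadherins were higher in 13 of 17, 8 of them from such a mean, and the netrin and Slit ligands with their receptors in 17 of 21, 5 of them likewise. Semaphorins, plexins and neuropilins were higher in 12 of 27 and lower in 5, or 3 lower without either untreated replicate. Ephrins and Eph receptors were higher in 7 of 16, or 3 at a fold of at least 2, and lower in 3. Claudins were higher in 1 of 10 and lower in 3, integrins higher in 2 of 13 and lower in 2, laminins higher in 2 of 10 and lower in 4, collagens 6 and 6 of 26 and tetraspanins 6 and 7 of 21. In that order the shares were 10% and 30%, 15.4% and 15.4%, 20% and 40%, 23.1% and 23.1%, and 28.6% and 33.3%. Over all genes they were 22.3% and 21.4%, and no direction of a family is read from these counts. Of these, integrin, laminin and collagen counts moved by more than 1.5 times when a library was left out, integrins to 1 higher without untreated replicate 1 or treated replicate 2 and 1 lower without treated replicate 2, laminins to 4 higher and 2 lower without untreated replicate 2 and to 2 lower without treated replicate 1, and collagens to 3 higher without untreated replicate 1. ncam1, the neural cell adhesion molecule, had 10.6 and 21.9 in untreated caps and 1794 and 1963 in treated caps (log2 fold change 6.85 ± 0.33, adjusted p = 5e-06). NTN1 (ENSXETG00000014390), a line for the guidance cue netrin-1 of the floor plate, had 17.2 and 6.57 and then 2424 and 2670.3 (log2 fold change 7.76 ± 0.44, adjusted p = 8.63e-06), and its receptor DCC had 2.65 and 2.19 and then 148 and 237 (log2 fold change 5.79 ± 0.45, adjusted p = 3.4e-05). slit1, a repellent, had 55.6 and 32.8 and then 4088 and 1671 (log2 fold change 5.90 ± 0.49, adjusted p = 4.6e-05). Both treated libraries were above both untreated ones in each. A few members of these lists were lower. slitrk6 had 588 and 785 and then 3.25 and 28.4 (log2 fold change -5.93 ± 1.15, adjusted p = 0.00354), flrt2 had a log2 fold change of -3.34 ± 0.65, the protocadherin pcdh20 one of -7.05 ± 0.75 and the netrin receptor unc5b one of -3.31 ± 0.63.

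Structural proteins of the epidermis were lower. Keratins were lower in 11 of 12, and 4 of the 11 had a treated mean under 10. Summed normalized reads of the 12 were 1736504 and 1384038 in untreated caps and 24743 and 16860 in treated caps. krt5.7 alone had 1079329 and 871264 and then 3036 and 2318 (log2 fold change -8.51 ± 0.24, adjusted p = 1.28e-06). krt8, a keratin of simple epithelia, had 41443 and 42321 and then 12169 and 8976 (log2 fold change -2.0 ± 0.23, adjusted p = 0.000229). The 1 keratin line that was higher was a line named krt18 (ENSXETG00000020455), with 1916 and 1137 and then 7558 and 4622 (log2 fold change 2.0 ± 0.42, adjusted p = 0.00551), while the other krt18 line (ENSXETG00000005611) had 323 and 291 and then 1.63 and 0.84 (untreated-to-treated ratio 247, 95% counting interval 84 to 1202, adjusted p = 8.87e-05). In each keratin line the libraries of the 2 groups stood apart. Reads of close keratin paralogs can be split between lines by the counting, so the values of single keratins are uncertain.

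Junctions followed. Of 23 genes of the desmosome and cornified envelope 14 were lower and 5 higher, and of 32 tight junction and polarity genes 21 were lower, or 13 without untreated replicate 1 or at a fold of at least 2, and 3 higher, or 5 without untreated replicate 2. evpl, envoplakin of the cornified envelope, had 19188 and 18854 in untreated caps and 1109 and 2045 in treated caps (log2 fold change -3.66 ± 0.39, adjusted p = 0.000145). dsp, desmoplakin, which ties keratin to desmosomes, had 23886 and 39172 and then 6311 and 5867 (log2 fold change -2.33 ± 0.26, adjusted p = 0.000195). marveld3 (ENSXETG00000019861), of the tight junction, had 349 and 393 and then 8.13 and 8.37 (log2 fold change -5.33 ± 0.37, adjusted p = 2.27e-05). None of the 3 overlapped. Annexin and S100 genes were lower in 9 of 11, anxa1 from 10862 and 8516 to 41.5 and 31.8 (log2 fold change -8.01 ± 0.59, adjusted p = 2.67e-05), with anxa6 the 1 higher, from 39.7 and 73.3 to 684 and 638 (log2 fold change 3.59 ± 0.34, adjusted p = 8.9e-05). Calpains and cathepsins were lower in 14 of 23, 5 of them to a treated mean under 10. Among the lower, capn2 fell from 19259 and 16221 to 51.2 and 97 (log2 fold change -7.95 ± 0.37, adjusted p = 4.49e-06).

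The genes of ionocytes and mucus-secreting cells were among the lists with the lowest medians. Of 17 ionocyte and small secretory cell genes 15 were lower, 7 of them to a treated mean under 10 (median -6.21), with summed reads of 80398 and 52055 in untreated caps and 3889 and 3176 in treated caps. Of 16 goblet and mucus genes 13 were lower, 7 of them to such a mean (median -6.34, or -6.20 with a gene at its bound). foxa1, a factor of small secretory cells that is also expressed in floor plate and endoderm, stood in both lists and was the 1 higher member of each, with 539 and 582 and then 2456 and 1825 (log2 fold change 1.92 ± 0.23, adjusted p = 0.000277). The proton pump genes were mostly lower. Of 22 V-type ATPase genes 17 were lower, or 9 at a fold of at least 2, and 2 higher. atp6v1b1, the subunit of acid-secreting cells, had 9831 and 9544 and then 11.4 and 15.9 (log2 fold change -9.39 ± 0.61, adjusted p = 1.55e-05). atp6v0e2 and ATP6V1G2, of which the latter is the neuronal G subunit in mammals, were higher, with 0 and 1.09 then 192 and 256 (treated-to-untreated ratio 373, 95% counting interval 66.7 to 14763, adjusted p = 1.2e-05) and 71.5 and 33.9 then 585 and 929 (log2 fold change 3.88 ± 0.54, adjusted p = 0.000603). atp6v1a, the catalytic subunit, had 1792 and 2374 and then 1166 and 2152, with overlapping groups and no call (adjusted p = 0.555). Of 7 carbonic anhydrase genes 2 were higher, both from an untreated mean under 10, and 4 lower, 2 of them to a treated mean under 10. Over all genes 22.3% were higher and 21.4% lower, and the 2 higher support no direction for the family. Among these genes ca12 fell from 1112 and 537 to 3.25 and 0 (log2 fold change -8.55 ± 0.82, adjusted p = 8.92e-05). ca14 rose from 6.62 and 4.38 to 2812 and 2791 (log2 fold change 8.77 ± 0.27, adjusted p = 1.28e-06).

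Related genes with calls in both directions are set side by side here. The sets were picked for such differences with the results known, so their number is no result. Calls in both directions were common, found in 82 of 102 families grouped by symbol and in 11 of 20 sets of close relatives, and 22.3% of all genes were higher and 21.4% lower. cdh1, E-cadherin of epithelia, had 18502 and 24577 in untreated caps and 931 and 258 in treated caps (log2 fold change -5.44 ± 0.89, adjusted p = 0.00141). cdh2, N-cadherin of neural tissue, had 38.4 and 42.7 and then 6100.2 and 8679 (log2 fold change 7.46 ± 0.33, adjusted p = 3.47e-06). cdh3, the cadherin that the early frog embryo inherits from the egg, had 2336 and 1700.4 and then 3081 and 2307, with overlapping groups (log2 fold change 0.42 ± 0.24, adjusted p = 0.19). Levels of different genes are not set against each other here, since reads depend on transcript length.

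Metabolic isozymes gave a further pair. ldhb, a lactate dehydrogenase subunit, had 103031 and 64911 in untreated caps and 425 and 479 in treated caps (log2 fold change -7.50 ± 0.40, adjusted p = 7.3e-06). ldha, the other subunit, had 216 and 130.2 and then 1326 and 1805 (log2 fold change 3.20 ± 0.54, adjusted p = 0.00169). Neither gene overlapped between the groups. aldoc, the aldolase of brain, had 83.4 and 99.6 and then 3073 and 3888 (log2 fold change 5.23 ± 0.45, adjusted p = 5.83e-05), and aldoa had a log2 fold change of 1.94 ± 0.22. Over the 24 glycolysis genes the counts were 9 higher (37.5%) and 6 lower (25%), with a median of 0.20. Over all genes 22.3% were higher and 21.4% lower, so the share lower was near that of all genes. hk2, a hexokinase, was among the lower with 875 and 837 and then 21.1 and 19.2 (log2 fold change -5.34 ± 0.39, adjusted p = 2.6e-05).

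Pump, cytoskeletal and adaptor genes gave further pairs. The sodium pump subunit atp1b2 had 21499.7 and 11307 in untreated caps and 147 and 133 in treated caps (log2 fold change -6.79 ± 0.87, adjusted p = 0.000398). The subunit atp1b3 had 225 and 630.3 and then 7167 and 10382 (log2 fold change 4.51 ± 0.46, adjusted p = 0.000118). Treated values of the first were the lower and those of the second the higher, without overlap. pfn1, a profilin that supplies actin monomers, had a log2 fold change of -2.35 ± 0.40, and pfn2, the profilin of brain, one of 5.06 ± 0.43. The 14-3-3 adaptor genes ywhaq and ywhag had -3.59 ± 0.31 and 5.28 ± 0.69. Polarity genes did the same, -5.19 ± 0.60 for llgl2 and 3.54 ± 0.27 for llgl1. The gap junction gene gjb7 fell from 648 and 433 to 0 and 2.51 (untreated-to-treated ratio 429, 95% counting interval 146 to 2084, adjusted p = 9.95e-05), and gjd2, the connexin of electrical synapses, rose from 2.65 and 1.09 to 171 and 155 (treated-to-untreated ratio 90.6, 95% counting interval 30.8 to 441, adjusted p = 0.000164).

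Splicing regulators also moved in opposite directions. esrp1, an epithelial splicing regulator, had 9709.6 and 10603 in untreated caps and 67.5 and 82 in treated caps (log2 fold change -7.07 ± 0.25, adjusted p = 1.59e-06). nova2, a neuronal splicing regulator, had 21.2 and 36.1 and then 3681 and 6913 (log2 fold change 7.46 ± 0.52, adjusted p = 2.19e-05), and SRRM4, which drives inclusion of neuronal microexons, had 3.97 and 7.66 and then 433 and 1349 (log2 fold change 6.87 ± 1.02, adjusted p = 0.000868). ptbp2, the neural polypyrimidine tract binding protein, had 217 and 259 and then 912 and 1674 (log2 fold change 2.38 ± 0.45, adjusted p = 0.0033), while ptbp1 was not called (log2 fold change -0.49 ± 0.25, adjusted p = 0.147). The groups were apart in all of the called genes. In the whole list of neuronal RNA processing factors 16 of 31 were higher and 2 lower, the latter 1 without either treated replicate.

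**Figure D4:**
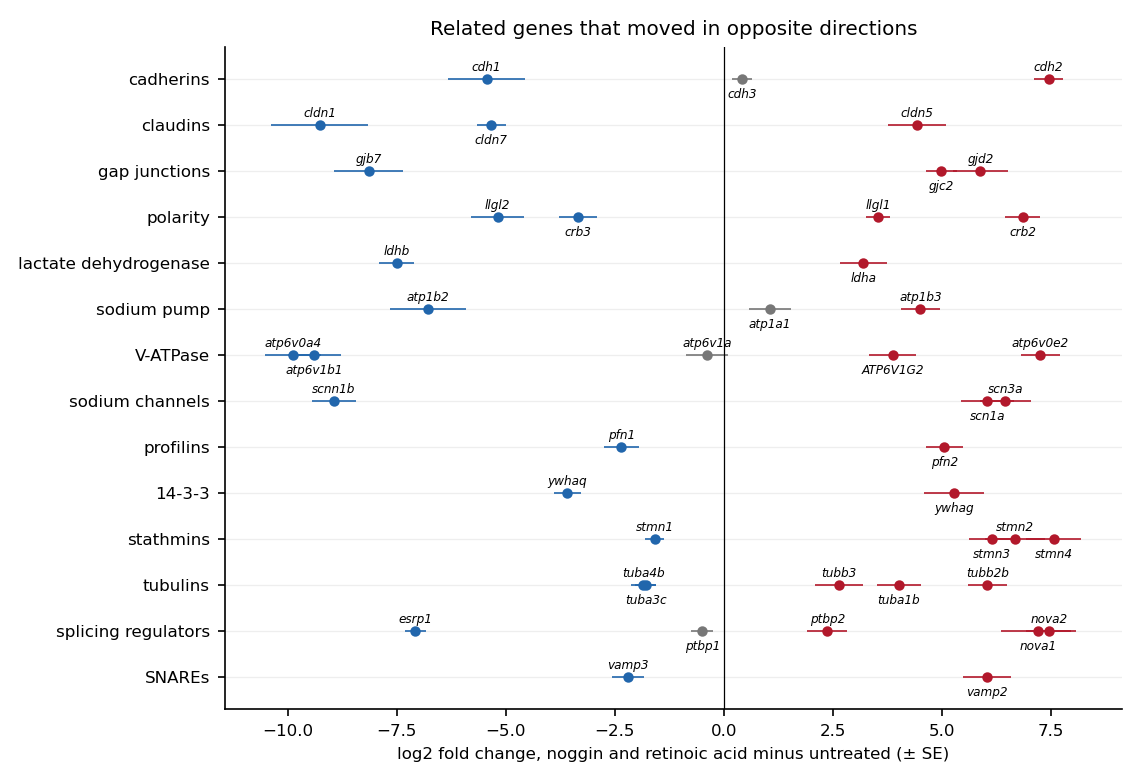
Log2 fold change (treated minus untreated caps) with its standard error for members of 14 sets of related genes, in red where called higher, blue where called lower and grey where not called. The sets were picked with the results known. Each row holds at least 1 gene on each side of 0, such as cdh1 at -5.44 and cdh2 at 7.46.

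Genes of mitochondrial energy supply were lower by modest amounts. Of 45 genes of respiratory complexes II to V 36 were lower and 0 higher (median -1.12), but only 3 passed when a fold of at least 2 was required. Of 36 complex I genes 14 were lower and 0 higher (median -0.70). That count was 6 without untreated replicate 1, 7 without treated replicate 1, 5 without treated replicate 2 and 0 at a fold of at least 2. uqcrfs1, the Rieske protein of complex III, had 13504 and 12172 in untreated caps and 4377 and 3968 in treated caps (log2 fold change -1.62 ± 0.19, adjusted p = 0.000232). sdhd, of complex II, had 1253 and 1209 and then 457 and 444 (log2 fold change -1.45 ± 0.21, adjusted p = 0.000681). slc25a5, the carrier that exchanges ADP and ATP, had 233275 and 172181 and then 64587 and 59376 (log2 fold change -1.69 ± 0.24, adjusted p = 0.000651). All 3 kept untreated values above treated ones. TCA cycle and adjoining genes were lower in 15 of 26, or 5 at a fold of at least 2, and 2 of the lowest were gluconeogenic, pck1 from 18628 and 9864 to 17.1 and 10.0 (log2 fold change -9.91 ± 0.56, adjusted p = 8.63e-06) and pck2 from 41857 and 35611 to 1518 and 619 (log2 fold change -5.31 ± 0.59, adjusted p = 0.000196). Mitochondrial ribosomal proteins were lower in 19 of 66 (28.8%, against 21.4% of all genes), and in 7, 9 and 5 without untreated replicate 1, treated replicate 1 and treated replicate 2, and in 34 with the replicate block and 0 at a fold of at least 2.

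Redox and secretory genes were lower as well. Glutathione and redox genes were lower in 25 of 42 and higher in 2 (median -1.55). gstp1, a glutathione transferase, had 3195 and 3389 in untreated caps and 31.7 and 17.6 in treated caps (log2 fold change -7.06 ± 0.44, adjusted p = 1.33e-05), and txn, thioredoxin, had 2091 and 649 and then 9.76 and 4.18 (log2 fold change -7.29 ± 0.83, adjusted p = 0.000215). ftmt, named for mitochondrial ferritin, had 88407 and 64613 and then 4692 and 4062 (log2 fold change -4.11 ± 0.30, adjusted p = 2.68e-05). The untreated values were the higher in all of these, and those of txn were 3.22 times apart. Chaperones and folding enzymes of the endoplasmic reticulum were lower in 24 of 45, or 7 at a fold of at least 2. p4hb, protein disulfide isomerase, had 69372 and 61274 and then 12052 and 8402 (log2 fold change -2.70 ± 0.33, adjusted p = 0.000303), hspa5, the lumenal Hsp70, had 67392 and 50319.7 and then 19965 and 20495 (log2 fold change -1.53 ± 0.22, adjusted p = 0.000768), and creb3l4, a membrane-bound factor of the secretory pathway, had 364 and 281 and then 0.81 and 0.84 (untreated-to-treated ratio 386, 95% counting interval 106 to 3199, adjusted p = 5.92e-05). Coat proteins of COPI and COPII vesicles were lower in 17 of 30, and in 11 and 10 without untreated replicate 1 and treated replicate 2, and in 2 at a fold of at least 2.

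Cytosolic ribosomal proteins gave 0 calls among 74 genes with limma, and 0 at an unadjusted p under 0.05, with edgeR or with DESeq2. All 74 had a log2 fold change below 0 (median -0.34, range -0.91 to -0.07), but this direction rested on the scaling, since 40 of 74 lay below 0 after quantile normalization and 73 after TMM. The replicate block called 35 of the 74 lower, and leaving out untreated replicate 2 called 1. All 74 also had fewer reads in replicate 2 than in replicate 1 of untreated caps (median log2 ratio -0.49), a difference as large as that between the groups. Chromatin remodelers and histone modifiers were higher in 42 of 123 and lower in 5. The count higher was 19 without untreated replicate 1, 18 without treated replicate 2 and 10 at a fold of at least 2. The count lower was 1 without treated replicate 1, 2 without treated replicate 2 and 9 with the replicate block. smarca4, the ATPase of the BAF complex, had 1297 and 1389 in untreated caps and 5325 and 5198 in treated caps (log2 fold change 1.97 ± 0.20, adjusted p = 0.000106). arid1b, a BAF subunit, had 172 and 351 and then 4803 and 4138 (log2 fold change 4.17 ± 0.32, adjusted p = 3.4e-05), and kdm1a, a histone demethylase, had 793 and 1373 and then 6796 and 7892 (log2 fold change 2.81 ± 0.29, adjusted p = 0.000129). Treated values were above untreated ones in the 3. Among 63 SR proteins, hnRNPs and snRNPs 16 were higher and 0 lower, a share near the 22.3% of all genes, with 10 higher without untreated replicate 1 or treated replicate 1, 2 at a fold of at least 2, and 26 higher and 1 lower with the replicate block.

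Genes of the signals that pattern the neural tube moved in both directions, as did all genes, of which 22.3% were higher and 21.4% lower. The shares of Wnt inhibitors given below, 25% and 18.8%, were near these. Of 14 FGF ligands, receptors and binding proteins 11 were higher, 5 of them from an untreated mean under 10, and 2 lower, or 1 lower without untreated replicate 2 or treated replicate 2. The 2 lower were fgfbp1, a secreted FGF carrier, with 622 and 1094 and then 0 and 2.51 (untreated-to-treated ratio 712, 95% counting interval 243 to 3456, adjusted p = 0.000269), and fgfbp2, with 31.8 and 746 and then 4.88 and 2.51 (log2 fold change -5.11 ± 1.40, adjusted p = 0.0182). fgfr1 had 842 and 509 in untreated caps and 5327 and 4432 in treated caps (log2 fold change 2.89 ± 0.30, adjusted p = 0.000132), and fgfr4 had 429 and 204 and then 5049.7 and 3352 (log2 fold change 3.79 ± 0.45, adjusted p = 0.00026). The ligand gene fgf8 had 0 and 1.09 and then 35 and 23.4 (treated-to-untreated ratio 48.9, 95% counting interval 8.49 to 1957, adjusted p = 0.00183). In the 3 genes both treated values were above the untreated ones. Of 21 genes of Hedgehog and primary cilium signalling 13 were higher and 0 lower, or 8 higher at a fold of at least 2. The count was also lower without untreated replicate 1, and 4 of the 13 had an untreated mean under 10. ptch1, a Hedgehog receptor and target, had 18.5 and 58 and then 359 and 487 (log2 fold change 3.63 ± 0.51, adjusted p = 0.000651). Of 26 Notch pathway genes 12 were higher and 4 lower, or 2 lower at a fold of at least 2. notch1 had 160.1 and 235 and then 2076 and 2590.0 (log2 fold change 3.57 ± 0.32, adjusted p = 6.45e-05), and the ligand gene JAG2 had 337 and 166 and then 12.2 and 19.2 (log2 fold change -3.86 ± 0.61, adjusted p = 0.00123). Wnt ligand genes were higher in 5 of 9, 4 of them from an untreated mean under 10, and lower in 2, or 0 without untreated replicate 1 or treated replicate 2 and 1 without untreated replicate 2. Frizzled and co-receptor genes were higher in 8 of 20, or 4 at a fold of at least 2, and lower in 2, or 1 without any of the 4 libraries in turn. Wnt inhibitors were higher in 4 of 16 and lower in 3, or 2 and 1 without untreated replicate 1 or treated replicate 2, and 7 were higher with the replicate block. wnt11, a ligand of non-canonical Wnt signalling, had 5.29 and 13.1 and then 2634 and 3079 (log2 fold change 8.24 ± 0.59, adjusted p = 2.4e-05). The groups stood apart in each gene named.

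Markers of tissues other than neural tube and skin were also detected, and several moved with the groups, beside 22.3% of all genes higher and 21.4% lower. Of 13 endoderm genes 9 were higher, 4 of them from an untreated mean under 10, and 1 lower, with summed reads of 851 and 983 in untreated caps and 8707 and 6310 in treated caps, and the 1 lower was not called without untreated replicate 1 or treated replicate 2. alb, serum albumin, had no read in untreated caps and 133 and 177 in treated caps (at least 86-fold higher in treated caps, adjusted p = 1.15e-05). f2, prothrombin, had 13.2 and 10.9 and then 3687 and 2690.4 (log2 fold change 7.92 ± 0.30, adjusted p = 1.88e-06), serpinf1, a secreted serpin, had 66.2 and 97.4 and then 7916 and 7686 (log2 fold change 6.58 ± 0.25, adjusted p = 1.86e-06), and cfi, complement factor I, had 109 and 75.5 and then 6040.0 and 2163 (log2 fold change 5.30 ± 0.72, adjusted p = 0.000532). In all 4 the treated libraries were the higher, and f2, serpinf1 and cfi, which the liver makes, are not members of the endoderm list. They are picked examples and support no direction for liver genes. Interleukin, Toll and complement genes as a list were higher in 12 of 77 (15.6%) and lower in 22 (28.6%). With the replicate block 21 of that list were higher. Of the endoderm list 10 further lines were under the mean of 10, at most 15.3 in any of the 4 libraries, and of the genes that define early endoderm mix1, sox17b.1 and sox17b.2 had 0 in all 4, while sox17a had 3.97 and 0 and then 8.13 and 10.9. Another of these lines, ttr, had 1.32 and 4.38 in untreated caps and 2.44 and 0 in treated caps. The pancreatic factor pdx1 had 0 in both untreated libraries and 11.4 and 3.35 in treated caps. The part of these genes in the results on neural genes was not tested.

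Mesodermal lists were mixed. Over all genes 22.3% were higher and 21.4% lower. The shares of the blood and endothelium list, 16.7% and 11.1%, were under these, and those of the germ cell list were 25% and 37.5%. Of 26 somite and muscle genes 12 were higher, 6 of them from an untreated mean under 10, and 4 lower, or 2 lower at a fold of at least 2, with summed reads of 15087 and 19332 in untreated caps and 12048 and 11407 in treated caps. myl1, a muscle myosin light chain, had 1.32 and 0 and then 367 and 108 (treated-to-untreated ratio 399, 95% counting interval 71.4 to 15797, adjusted p = 0.000378), and actc1, cardiac actin of frog somites, had 79.4 and 149 and then 2850.5 and 1616 (log2 fold change 4.29 ± 0.49, adjusted p = 0.000213). A further 12 lines of the list were under the mean of 10, among them the myogenic factors myf5, myog and myf6, which had at most 1.63 in any of the 4 libraries. tcf15, a somite factor under the same mean, had 0 in both untreated libraries and 7.32 and 10.9 in treated caps. myod1, the tested myogenic factor, had 0 and 1.09 and then 238 and 264 (treated-to-untreated ratio 419, 95% counting interval 75 to 16585, adjusted p = 9.11e-05). The lower members included tpm1, a tropomyosin, with 4799 and 6390.2 and then 771 and 647 (log2 fold change -2.97 ± 0.26, adjusted p = 5.83e-05). Of 7 notochord genes 5 were higher, 3 of them from an untreated mean under 10. Sums over the 7 were 154 and 239 in untreated caps and 10556 and 14897 in treated caps. Most of the treated sum was col2a1, a collagen of notochord and cartilage, with 94 and 209 and then 7779 and 11699 (log2 fold change 6.08 ± 0.69, adjusted p = 0.00021). The highest log2 fold change of the list, 7.76, was that of NTN1, the line for the floor plate cue described above. The defining notochord gene t, brachyury, had 18.5 and 7.66 and then 4.07 and 8.37, with overlapping groups and no call (adjusted p = 0.279), and the 4 notochord and organizer lines under the mean of 10, shh, not, gsc and admp, had at most 1.67 in any library. The kidney list had 7 of 12 higher, 4 of them from an untreated mean under 10, and 2 lower, with sums of 1513 and 1537 and then 5321 and 5862, and it shares pax2, pax8 and lhx1 with the hindbrain and spinal cord. Blood and endothelium genes were higher in 3 of 18 and lower in 2, with sums of 1161 and 882 and then 1176 and 483, and both counts changed by more than 1.5 times when libraries were left out, to 1 higher without untreated replicate 1, untreated replicate 2 or treated replicate 1, and to between 1 and 4 lower over the 10 libraries left out in turn, and to 5 higher with the replicate block. Germ cell genes were higher in 2 of 8 and lower in 3, with 1 higher when any of the 4 libraries was left out and a median of 0.13, and the lower ones included ddx4, a helicase of the germ plasm, with 787 and 444 and then 43.9 and 31.8 (log2 fold change -3.95 ± 0.38, adjusted p = 9.82e-05). What these markers contribute to any other list was not tested.

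Multiciliated cell genes stood between. Of 29 genes 5 were higher and 6 lower (median -0.15), shares near those of all genes, or 1 and 3 at a fold of at least 2, with summed reads of 42355 and 27711 in untreated caps and 31165 and 30222 in treated caps. The count higher was 3 without untreated replicate 1 or treated replicate 2. Genes of mitosis and DNA replication gave few calls in either direction, 2 higher and 1 lower of 39 and 0 higher and 3 lower of 40, against 22.3% and 21.4% of all genes. All of these counts changed by more than 1.5 times in at least 1 library left out. The mitosis counts ranged from 1 to 3 in each direction, and the replication counts from 0 to 1 higher and 0 to 3 lower. With the replicate block they were 4 and 5 for mitosis and 2 and 7 for replication.

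The 2 libraries of treated caps differed from each other along some of the lists. Replicate 2 had fewer reads than replicate 1 for 37 of 39 mitosis genes (median log2 ratio -1.17) and 39 of 40 replication genes (median -0.82). It had more for 37 of 39 synaptic genes (median 0.92), 38 of 45 axonal genes (median 0.79) and 28 of 31 neuronal RNA processing genes (median 0.85). In untreated caps 19 of 39 mitosis genes and 33 of 40 replication genes had more reads in replicate 2, with medians of 0.00 and 0.38. Summed reads of the mitosis list were 18018 and 16778 in untreated caps and 21481 and 10121 in treated caps, so the treated libraries lay on either side of the untreated ones. For comparison, over all 12937 genes the median size of the log2 ratio between replicates was 0.44 in untreated and 0.48 in treated caps, and 2451 and 2534 genes differed by more than 2-fold. With its sign the median was -0.001 and 0.047, and 6324 and 6882 genes had more reads in replicate 2. Over genes, the difference between the treated replicates correlated with that of the groups with a prdm12 construct at 0.55 to 0.79, so it was not particular to treated caps. Whether the 2 libraries differ in age, culture or preparation is not given in the labels.

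**Figure D5:**
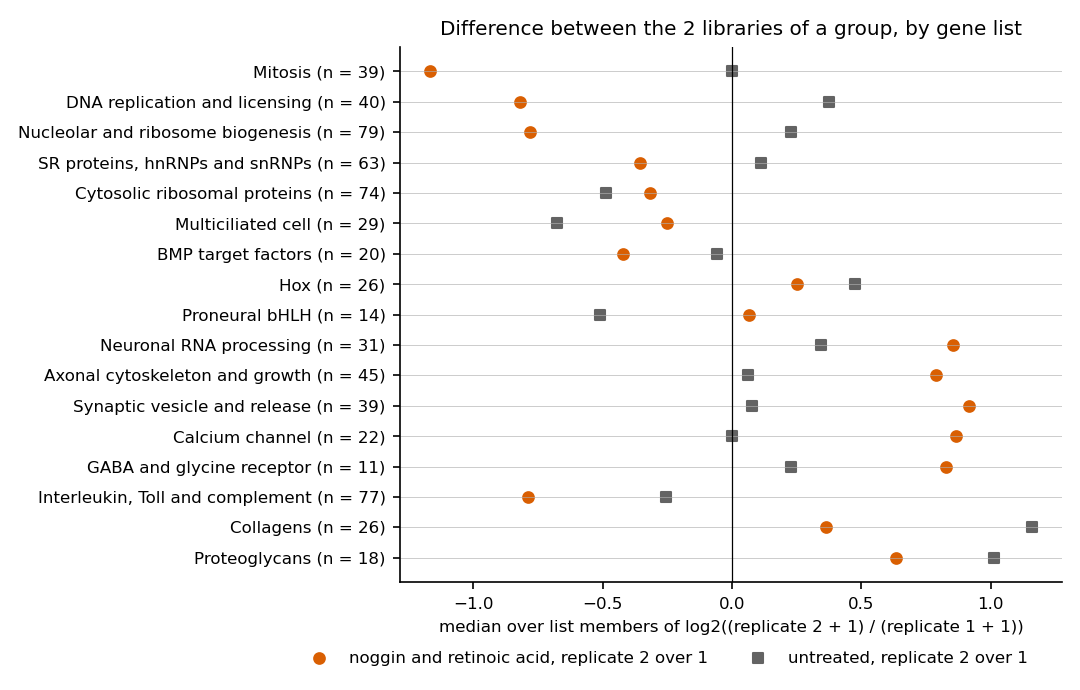
Median over list members of the log2 ratio of replicate 2 to replicate 1 for 17 gene lists, with circles for treated caps and squares for untreated caps, and the number of genes in parentheses. In treated caps the mitosis list lies lowest at -1.17 and the synaptic list highest at 0.92, while in untreated caps the same lists lie at 0.00 and 0.08.

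Among the genes with the largest fitted rises were several with almost no reads in untreated caps. nrl, a bZIP factor known from photoreceptors, had 0 and 2.19 and then 1324 and 781 (treated-to-untreated ratio 882, 95% counting interval 244 to 7288, adjusted p = 1.44e-05). dach1, a corepressor of neural and limb tissue, had 1.32 and 1.09 and then 657 and 778 (treated-to-untreated ratio 598, 95% counting interval 165 to 4943, adjusted p = 1.79e-06). TMEM198 (ENSXETG00000014414) had no read and then 244 and 486 (at least 202-fold higher in treated caps, adjusted p = 2.1e-05), and ndst4, a heparan sulfate sulfotransferase gene, had no read and then 221 and 518 (at least 204-fold higher in treated caps, adjusted p = 0.000735). At the other end, ttc22 had 1212 and 1264 in untreated caps and no read in treated caps (at least 1003-fold lower in treated caps, adjusted p = 5.19e-06). capn8, a calpain of the stomach in mammals, had 6297 and 5758 and then 1.63 and 8.37 (log2 fold change -10.24 ± 0.72, adjusted p = 2.32e-05), and xepsin, a serine protease named in the frog, had 2746 and 2692 and then 1.63 and 0.84 (untreated-to-treated ratio 2196, 95% counting interval 751 to 10653, adjusted p = 7.3e-06). In all of these the groups were far apart.

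A further 1235 genes had a fitted change of more than 2-fold and were not called. In several the 2 treated libraries were far apart, and other fits called some of these. gsx1, a homeobox gene of dorsal interneuron progenitors, had no read in untreated caps and 9.76 and 199.9 in treated caps (adjusted p = 0.0582). PTX3, a pentraxin, had 9.26 and 4.38 and then 486 and 46.9 (adjusted p = 0.0515), and stc1, a stanniocalcin, had 10.6 and 7.66 and then 517 and 41 (adjusted p = 0.0926). The treated values were 20.5 times apart for gsx1, 10.4 times for PTX3 and 12.6 times for stc1, all of them above the untreated values. With the replicate block all 3 were called higher (adjusted p = 0.00885 for gsx1, 0.00438 for PTX3 and 0.00882 for stc1), as they were with DESeq2 on recovered reads (0.000612, 0.000353 and 0.00119), while edgeR on recovered reads called PTX3 (0.0478). In untreated caps some genes differed as much. bgn, the matrix proteoglycan biglycan, had 9.26 and 259 and then 19.5 and 102 (adjusted p = 0.948), and cav2, a caveolin, had 72.8 and 1226 and then 7.32 and 10.0, which was called lower (log2 fold change -4.97 ± 1.2, adjusted p = 0.0102) though the untreated values were 16.8 times apart.

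A small set of genes was held within narrow limits. For 37 genes the 95% interval of the log2 fold change lay within 0.5 of 0 on either side, and for 1734 within 1. Of these 37, eef1g, an elongation factor subunit, had 27465 and 23985 in untreated caps and 26094 and 25191 in treated caps. eif3d, an initiation factor subunit, had 12351 and 11054 and then 12575 and 11049. The chaperone gene bag6 had 4433 and 3438 and then 4068 and 3894. The groups overlapped in all 3, with adjusted p = 0.996 for eef1g, adjusted p = 0.966 for eif3d and adjusted p = 0.92 for bag6.

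In the 6 libraries that also received a prdm12 construct, which were not compared here, the levels of these genes can be set beside the 4 libraries. Values of krt5.7 ran from 2984 to 12264 over those 6 libraries and those of trim29, an epidermal gene with 7631 and 10642 in untreated and 7.32 and 9.2 in treated caps, from 12.8 to 320.4. cyp26a1 ran from 55507 to 122528, hoxb8 from 2722 to 5452 and cdh2 from 5403 to 10461. All 6 libraries thus lay on the treated side of the untreated values for these 5 genes. For nrl the range was 127 to 654, below both treated values, and for nog4 it was 0 to 20.6, also below both. For gad1 it was 2.3 to 4393, and for slc6a5 it was 26.5 to 4538, so that both ranges reached above the treated values.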

How the data were processed

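RNA of 10 libraries in 5 groups of 2 was measured, and the 4 libraries of untreated and noggin plus retinoic acid caps were compared. Poly-A RNA was sequenced from libraries that keep no strand, per the labels' protocols. The submitters' processing notes name Bowtie, Bowtie2, edgeR and HOMER with no version, and genome build and counting settings are not given in the sources used here. A deposited table holds normalized signal for each gene, which the authors labelled normalized in the file's name. Of 19926 lines, 5 summarize reads without a gene and were left out. Every value was a whole number of reads times 1 factor per library (100% of values within 0.05 of a step), so reads on genes were recovered: 11986697 to 15893668 in each library. The untreated columns carry a code and were matched by elimination, since every other RNA column names its construct. Of 19921 genes, 15688 have a symbol, 3210 had no read in any library and 12937 had a mean of at least 10 over the 10 libraries.

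Values plus a pseudocount of 1 were taken to log2 and fitted in R 4.3.3 by limma 3.58.1 with its trend option, in 1 fit of all 10 libraries with group as the only term (5 residual and 3.17 prior degrees of freedom), and the difference was tested in a two-sided manner with Benjamini-Hochberg adjustment at 0.05. Intervals on ratios of reads are exact 95% intervals and, like the floor of 3 reads over a group, cover counting error only. The medians of 6 of 134 lists moved when genes with no read in a group were set at their bound. On simulated counts for this comparison over 12937 genes, 2 of 50 genes changed 2-fold, 30 of 50 changed 4-fold, 48 of 50 changed 8-fold and 48 of 50 changed 64-fold were called, with 7 of 12737 unchanged genes called. Figures used matplotlib 3.10.9.

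A written rule set the genes open to naming. They were the 20 largest changes in each direction among called genes with groups apart, the 15 largest differences in reads in each direction, up to 4 called members of each list in each direction by p, all members of the BMP and retinoic acid lists and of sets of related genes, the markers, the 10 largest changes not called, the 10 most abundant genes with an interval within 0.5, and the 10 genes most different between untreated replicates. The rule takes 925 genes, and the text names only a part of them, which no rule picked. The text names 188 genes of the comparison, 166 from among those the rule takes and 22 from outside it, chosen after their values were seen (SLC18A3, atp6v1a, dsp, fgf8, fgfr4, gad1, hoxa9, hoxb1, hoxb9, hspa5, kdm1a, krt8, llgl2, olig2, ptch1, skap1, slc6a5, t, txn, xtr-mir-10b, xtr-mir-205a and xtr-mir-219), as were slc18a1 and the listed genes under the mean of 10, which are not in these counts. The comparison's members and lists were chosen with earlier results of these data known, and symbols of unrelated genes were removed from families by identity. Alternatives were other pseudocounts, filters, scalings, tests and fits, edgeR 4.0.16 and DESeq2 1.42.0 on recovered reads, and each library left out. The labels number replicates 1 and 2 in every group. The difference between replicate 2 and replicate 1 of a group was correlated, over genes, with that of each other group. All 10 coefficients were positive, the lowest 0.22 and the highest 0.79, with 0.25 for the 2 groups compared. Those with untreated caps were 0.22 to 0.25, and those among the other groups 0.51 to 0.79. No label states that equal numbers pair libraries, and the low coefficients leave it uncertain for untreated caps. The fit that blocks on the number gives 1 shared replicate term to all groups, so its calls depend on that assumption. It is quoted where it moves a count. Peak files of the other 4 samples were not used here. Some genes are not reported here.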

Additional observations from a re-analysis of the deposited data

How the results depend on the processing

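Over 25 alternatives no called gene changed sign where it had a fitted value. For many of them the sign was fixed in advance, since the 4 libraries and their values stayed the same. These were the other filters, the fit without the trend, a fold of at least 2 and the 4 libraries alone. The replicate block and the fits without a construct library were of this kind too. With a mean of at least 50, 880 called genes had no value. The count of genes higher ran from 2497 to 3157 and the count lower from 2280 to 3106 over the other pseudocounts, filters, scalings and tests, with edgeR (2926 and 2597) and DESeq2 (3157 and 3085) on recovered reads among them. Requiring a fold of at least 2 left 1668 higher and 1466 lower, and of 241 list counts above 0 it lowered 103 by more than 1.5 times, while the replicate block moved 35 by as much. Leaving out 1 library gave 2033 to 2904 higher and 2048 to 2783 lower, lowest without treated replicate 2. The replicate block gave 3831 higher and 3717 lower and kept all 5655 calls. Scaling by the median of ratios gave the same 5655 calls and left the median of all genes in place. It thus all but repeated the deposited scaling and is no separate check. On simulated counts 4% of 2-fold changes and 96% of 8-fold changes were called. Those counts held 12737 unchanged genes of 12937 and 1 dispersion (0.139) for all genes. Far more genes were called in the data, so the Benjamini-Hochberg cutoff was less strict there and these rates do not carry over. In the data 2647 of 2887 genes called higher and 2525 of 2768 called lower had a fitted change of more than 2-fold, and the others a smaller one. Genes not called are not shown to be unchanged.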

Other observations

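Among lines for microRNA genes, which poly-A libraries do not measure as mature microRNAs, xtr-mir-10a had no read in untreated caps and 388 and 295 in treated caps (at least 190.5-fold higher in treated caps, adjusted p = 3.24e-06). It lies within a stretch of 10 neighbouring genes called higher, from skap1 through hoxb1 to hoxb9 (scaffold GL172970.1, 229541 to 589462, in the coordinates of the deposited table). The line xtr-mir-10b had no read and then 18.7 and 82 (at least 27.8-fold higher in treated caps, adjusted p = 0.00291). The line xtr-mir-219 had 0 and 1.09 and then 320.3 and 289 (treated-to-untreated ratio 509, 95% counting interval 91.1 to 20147, adjusted p = 8.4e-06). The line xtr-mir-205a had 41 and 89.7 and then no read (at least 54.7-fold lower in treated caps, adjusted p = 0.000163), a call that DESeq2 on recovered reads did not make. The libraries keep no strand, so reads of these lines and of transcripts that cross them cannot be told apart.

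Called genes stood side by side in other places too. Of 13 stretches of at least 6 neighbouring tested genes called in the same direction, 6 were higher and 7 lower, and the 10-gene stretch above holds hoxb1, which was not called without untreated replicate 1, without either treated replicate, or with edgeR on recovered reads (adjusted p = 0.07). These counts were not recomputed with libraries left out. Across 11357 adjacent pairs of genes the log2 fold changes correlated at r = 0.14, and at 0.064 in the 9996 pairs whose symbols have different stems, as a description of pairs that share libraries and are not independent.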
